A study of Mus musculus with 12 samples.

Results

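To see how the loss of Shank3 is reflected in the juvenile brain, RNA-seq profiles of the forebrain of Shank3 knock-out (KO) mice were compared with those of wild-type (WT) mice at postnatal day 25 (P25). The comparison uses 6 of the 12 libraries of the series, chosen by the age and genotype in their titles, with 3 P25-KO and 3 P25-WT libraries. No library of the adult age, postnatal day 60, enters any value given here. All mice were C57BL/6J males, and pups of mixed genotype were reared together by their mothers. KO mice were homozygous for a deletion of exons 14 to 16 of Shank3, and WT mice carried none of it. According to the methods, the tissue was forebrain without the olfactory bulb and each library stands for 1 mouse. The libraries are written KO1 to KO3 and WT1 to WT3 below, by the replicate numbers of their titles.

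SHANK3 is a large scaffold protein of the postsynaptic density, the protein lattice beneath excitatory synapses. Its PDZ domain binds the SAPAP (DLGAP) proteins, which in turn bind PSD-95, while a proline-rich region binds Homer and through it metabotropic glutamate receptors. SHANK3 is strongly expressed in the striatum and cortex, and loss of 1 copy in humans causes Phelan-McDermid syndrome, a disorder with autism and intellectual disability.

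The table gave normalized counts, that is, estimated reads per gene divided by factors for library size and transcript length, for 19268 genes. Totals over genes were nearly equal, as normalization makes them, and each library detected 19190 to 19223 of these genes. WT2 stood apart from the other libraries. Its Pearson correlation across genes with them was 0.982 to 0.986, while the highest correlations among the others reached 0.990. The SD over genes of its log2 deviation from the mean of the other 5 libraries was 0.412, against 0.309 to 0.346 in the others. Gene list medians are therefore given with and without WT2, as are most fold changes, and where a gene is described by its levels alone, the value of WT2 stands among them.

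The libraries carried the neuronal transcripts of forebrain. Slc17a7, the vesicular glutamate transporter of cortical neurons, had 37062 to 39257 normalized counts, and Ppp1r1b, which encodes the striatal phosphoprotein DARPP-32, had 7870 to 9879. Of 29 cerebellar and hindbrain markers 21 were in the table and 17 were tested, and their summed level was 8019 to 8599 in KO and 8420 to 8689 in WT libraries. Gabra6 and Pcp2, which mark cerebellar granule and Purkinje cells, had means under the minimum of 10 used for testing. A few brainstem genes, singled out after their values were seen, differed among libraries of 1 genotype. Slc6a5, the glycine transporter of inhibitory brainstem and spinal neurons, had 219, 46.0 and 29.9 normalized counts in KO1 to KO3 and 266, 64.7 and 240 in WT1 to WT3. Hoxb3, a patterning gene of the hindbrain, had 2.61, 0 and 6.12 in KO1 to KO3 and 27.9, 0.804 and 27.8 in WT1 to WT3. Thus WT1 and WT3 were high and WT2 low for both genes, and KO1 was high for Slc6a5 alone. The list had a median log2 fold change of -0.06, and -0.12 without WT2, with scores (mean log2 deviations from the 6-library mean) of 0.07, -0.18 and -0.27 in KO and 0.33, -0.15 and 0.21 in WT. The part of this difference in the other results was not tested.

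The deleted gene was examined first. Shank3 (ENSMUSG00000022623, GRCm38 chromosome 15, 89499623 to 89560261) had 4891, 4901 and 5729 normalized counts in KO1 to KO3. It had 10401, 11683 and 10254 in WT1 to WT3. Every KO library lay below every WT library, with means of 5174 ± 481 in KO and 10779 ± 786 in WT (SD, n = 3), so that 48.0% of the WT level remained in KO. Shank3 fell by 1.06 on the log2 scale, with an SE of 0.09 and an adjusted p of 0.0134 (limma, Benjamini-Hochberg over all genes tested). Leaving out WT2 gave a fall of 1.0 and an adjusted p of 0.00302. The two-sided exact permutation test over the 6 libraries gave p = 0.1, the smallest p that its 20 arrangements allow. The direction held whichever library was left out, but the call was lost without KO1 (adjusted p = 0.246, limma) or without KO2 (adjusted p = 0.201, limma). It was also lost when the dependence of each library on length and GC content was removed by splines (adjusted p = 0.178, limma), when no intensity trend was used (adjusted p = 0.412, limma) and with the replicate number as a block (adjusted p = 0.261, limma).

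The deletion takes out a small piece of the message, so a gene-level value still counts whatever is transcribed from the remaining exons. In the GENCODE transcript used here as the reference, with 22 exons and 7131 bases, exons 14 to 16 span 341 bases, or 4.78% of its length. Their length leaves a remainder of 2 on division by 3, so joining exon 13 to exon 17 would shift the reading frame. Of 9 annotated Shank3 transcripts, 6 hold all of these exons. The exons are printed whole below, since they are the sequence that separates the 2 groups. They were read from this transcript on the plus strand of GRCm38, and their numbers are its own, since the study's methods do not name the transcript by which its exons are numbered.
Exon 14, chr15:89531626-89531708: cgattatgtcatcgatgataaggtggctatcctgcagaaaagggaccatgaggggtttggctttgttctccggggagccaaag
Exon 15, chr15:89532095-89532219: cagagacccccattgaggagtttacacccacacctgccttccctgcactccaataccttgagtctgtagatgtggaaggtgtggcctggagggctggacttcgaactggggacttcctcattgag
Exon 16, chr15:89532329-89532461: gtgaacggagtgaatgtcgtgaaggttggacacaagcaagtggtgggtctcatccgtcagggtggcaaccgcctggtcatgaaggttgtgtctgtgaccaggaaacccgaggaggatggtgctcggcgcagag

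Across the transcriptome the log2 fold changes between P25-KO and WT forebrain were mostly small. Of 17515 genes with a mean of at least 10 normalized counts, 1 gene, Shank3, passed an adjusted p of 0.05 (0.00571% of genes tested). An unadjusted p under 0.05 was reached by 238 genes (1.36%), 118 of them higher and 120 lower in KO. Evenly spread p-values would put a share of 0.05 there, so this test was strict on these libraries. Few calls therefore do not show that the groups are alike. All KO libraries lay above all WT libraries for 396 genes (2.26%) and below them for 437 genes (2.5%). The median log2 fold change of all genes tested was -0.0082, and 46.6% of them were higher in KO. Apart from Shank3, differences of more than 1 on the log2 scale were found among genes with means up to 1000. Among 6331 genes with a mean over 1000, the median absolute log2 fold change was 0.04 and 1 gene, Shank3, differed by more than 1. At means of 100 to 1000, 10 of 6539 genes did so, and at means of 10 to 100, 104 of 4645 genes did.

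**Figure D1:**
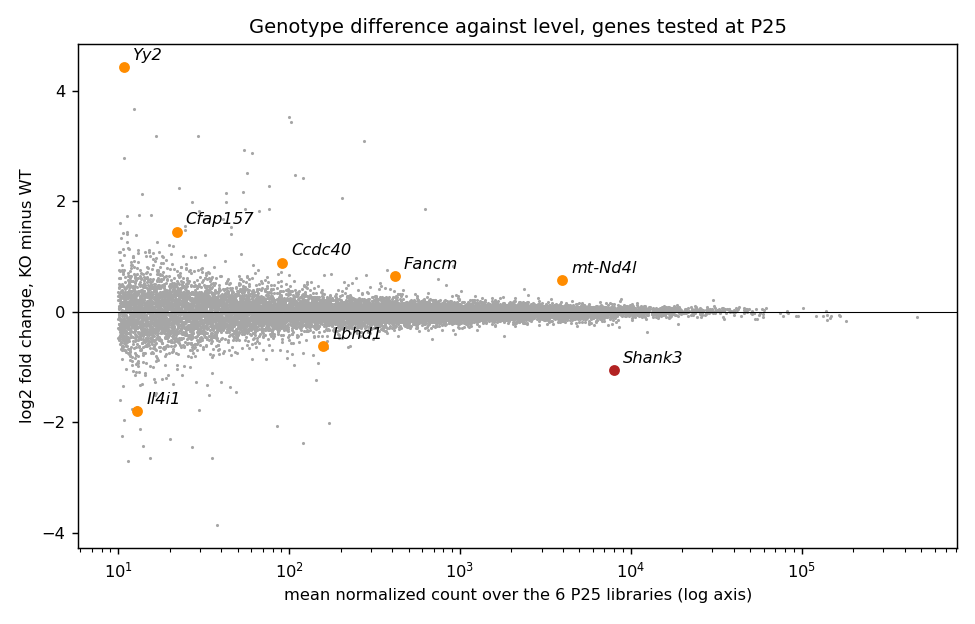
The log2 fold change (KO minus WT, vertical axis) is plotted against the mean normalized count over the 6 P25 libraries (horizontal log axis), with 1 grey point for each of 17515 genes tested, Shank3 in red and other named genes in orange. Shank3, at a log2 fold change of -1.06, is the only point with a mean over 1000 that lies more than 1 from 0, and the spread of points widens toward low levels.

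With WT2 left out the same single gene was called. Of 17528 genes then tested, 1 passed an adjusted p of 0.05 (0.00571%), again Shank3, and 726 reached an unadjusted p under 0.05 (4.14%). The 3 KO libraries lay above the 2 remaining WT libraries for 1626 genes (9.28%) and below them for 1964 genes (11.2%). Leaving out WT1 gave 8 called genes and leaving out KO3 gave 2. Apart from Shank3, these were all genes with clone-like names or bare identifiers.

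Beside Shank3, the study's text names Fancm, Yy2 and Ccdc40 for juvenile mice, a choice made on these same libraries. With DESeq2 and an adjusted p under 0.05 the study called all of them higher in KO. The main limma fit given here called none of them, and why the tests differ was not tested. Fancm (ENSMUSG00000055884, chromosome 12), a DNA helicase of the Fanconi anemia repair pathway, had 507, 486 and 522 normalized counts in KO1 to KO3 and 342, 298 and 332 in WT1 to WT3. The groups were well apart, with a KO level of 156% of WT and a log2 fold change of 0.64 ± 0.10 (SE), but its adjusted p was 0.829 (limma). Without WT2 the log2 fold change was 0.58 and the adjusted p was 0.430 (limma).

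Yy2 (ENSMUSG00000091736, chromosome X), a zinc finger factor that arose by retroposition of the Yy1 gene, was listed at 0 in all 3 WT libraries. It had 12.3, 26.9 and 26.0 normalized counts in KO1 to KO3. Its adjusted p was 0.179 with all libraries and 0.154 without WT2 (limma), and no fold is given against a group listed at 0. Yy2 lies within the gene Mbtps2, and all of its 31-base words, 100%, also occur in transcripts of Mbtps2, so that reads of the 2 genes could be divided in either way. Mbtps2, added after its values were seen, had 659, 630 and 681 in KO1 to KO3 and 663, 757 and 719 in WT1 to WT3. The sum of both genes was 671, 656 and 707 in KO and 663, 757 and 719 in WT, and here the groups overlapped.

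Ccdc40 (ENSMUSG00000039963, chromosome 11), which is required for the assembly of motile cilia, had 150, 128 and 73.9 normalized counts in KO1 to KO3. In WT1 to WT3 it had 49.2, 93.4 and 48.2, so KO3 lay below WT2 and the groups overlapped. The log2 fold change was 0.88 ± 0.33 (SE) with an adjusted p of 1.0, and 1.19 with an adjusted p of 0.939 without WT2 (limma).

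**Figure D2:**
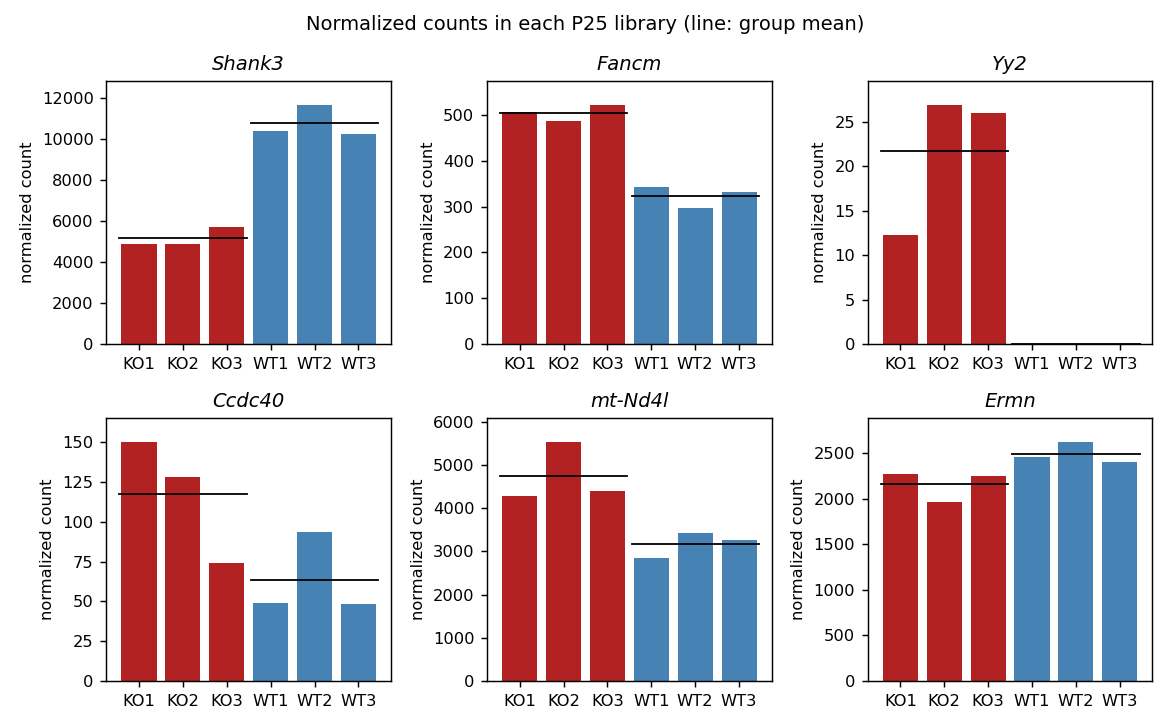
Normalized counts (vertical axes, from 0) of Shank3, Fancm, Yy2, Ccdc40, mt-Nd4l and Ermn are plotted as 1 bar per library, KO in red and WT in blue, with a black line at each group mean. KO and WT bars do not overlap for Shank3, Fancm, Yy2, mt-Nd4l and Ermn, while for Ccdc40 KO3 at 73.9 lies below WT2 at 93.4.

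The genes with the smallest p-values beyond these had adjusted p-values of 1.0 over all libraries (limma), so they are described by their levels and fold changes, none of which passed the test. Among those higher in KO, mt-Nd4l, a mitochondrially encoded subunit of complex I, had 4279, 5542 and 4394 normalized counts in KO1 to KO3 and 2840, 3426 and 3266 in WT1 to WT3. This was the opposite of its nuclear copy, the pseudogene Gm10222 on chromosome 1, in which 98.9% of the 31-base words of mt-Nd4l also occur. Gm10222, added after its values were seen, had 10111, 11536 and 11176 in KO1 to KO3 and 14683, 14003 and 13529 in WT1 to WT3. Summed over both genes, the level was 14390, 17078 and 15569 in KO and 17522, 17429 and 16796 in WT, and the groups overlapped.

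Of the other genes higher in KO, Taf15, an RNA-binding protein associated with transcription factor TFIID, had the highest level per transcript length. It had 1321, 1369 and 1337 normalized counts in KO1 to KO3 and 1146, 1044 and 1112 in WT1 to WT3, a log2 fold change of 0.29 ± 0.08 (SE), or 0.25 without WT2. The remaining genes were low, with log2 fold changes of 0.74 for Gja5, 1.2 for Cnn1 and 1.45 for Cfap157, and of 0.74, 1.03 and 1.47 without WT2. Gja5, the connexin of arterial endothelium, had 34.5, 33.8 and 35.9 in KO and 21.6, 20.3 and 19.2 in WT. Cnn1, which encodes calponin of smooth muscle, had 35.3, 31.3 and 17.6 in KO and 12.8, 8.54 and 12.7 in WT. Cfap157, a protein of cilia and flagella, had 53.2, 27.7 and 19.1 in KO and 10.1, 10.9 and 10.7 in WT.

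Among the genes lower in KO, Lcp1 encodes the actin-bundling protein L-plastin of blood cells and microglia. It had 215, 223 and 220 normalized counts in KO1 to KO3 and 294, 267 and 335 in WT1 to WT3, a log2 fold change of -0.44 ± 0.12 (SE), or -0.51 without WT2. Slc22a4, a transporter of ergothioneine and carnitine, had 161, 154 and 188 in KO and 215, 237 and 221 in WT. Cep128, a protein of the centriole, had 137, 138 and 129 in KO and 180, 181 and 233 in WT. These 3 genes differed by a similar amount, at 68.1% to 74.7% of the WT level, and the log2 fold changes with and without WT2 were -0.42 and -0.38 for Slc22a4 and -0.54 and -0.60 for Cep128. Lbhd1 had 114, 115 and 144 in KO and 199, 167 and 212 in WT, and shares 38.4% of its words with other genes. Hpn, the membrane protease hepsin, had 24.5, 27.2 and 24.3 in KO and 38.1, 47.4 and 51.9 in WT, with log2 fold changes of -0.82 with and -0.79 without WT2. The lowest levels per transcript length were those of Il4i1, an amino acid oxidase, with at most 8.90 in KO and at least 13.7 in WT, and of Slc35d2, a nucleotide sugar transporter, with at most 11.6 in KO and at least 16.3 in WT. Il4i1 shares 80.5% of its words with other genes, mostly with its neighbour Tbc1d17, so its values are uncertain.

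Without WT2 the order of p-values brought up genes in which WT2 differed from the other WT libraries, and none of them passed (adjusted p from 0.741 to 0.939, limma). Sst, the neuropeptide somatostatin of interneurons, had 5532, 5698 and 6000 normalized counts in KO1 to KO3 and 4972, 7810 and 4639 in WT1 to WT3. Its log2 fold change was 0.02 with WT2 and 0.26 without it. Gtf3c4, a subunit of the RNA polymerase III factor TFIIIC, had 1549, 1513 and 1538 in KO and 2021, 1390 and 1899 in WT, and its log2 fold change went from -0.19 to -0.35. WT2 thus lay beyond the KO libraries, on the far side from WT1 and WT3, for Sst and for Gtf3c4. The same held for Tnrc6b, which acts in microRNA silencing, with 3727, 3450 and 3555 in KO and 4258, 2792 and 4861 in WT, and a log2 fold change of -0.11 with and -0.35 without WT2. Snhg14, the long transcript that runs antisense to Ube3a, had 7359, 6632 and 6202 in KO and 8519, 4878 and 8793 in WT, with log2 fold changes of -0.09 and -0.37. It shares 7.81% of its words with Ube3a transcripts, and the methods do not say whether reads were counted by strand.

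Gene classes were described next, by 31 lists of genes. For each list the median log2 fold change of its tested members is given beside that of all genes, -0.0082, together with the score of each library, which is the mean log2 deviation of the members from their means over the 6 libraries. Counts of members stand against the shares of all genes, which with all libraries were 1.36% for an unadjusted p under 0.05, 2.26% for every KO library above WT and 2.5% for every KO library below, and without WT2 4.14%, 9.28% and 11.2%. Of all list members, 1 was called, Shank3. The median was below 0 for 19 lists and above 0 for 12. In none of the 31 lists (0) were the scores of the KO libraries apart from those of the WT libraries. Without WT2 the sign of the median changed for 16 lists, while leaving out any other library changed it for 3 to 8 lists.

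**Figure D3:**
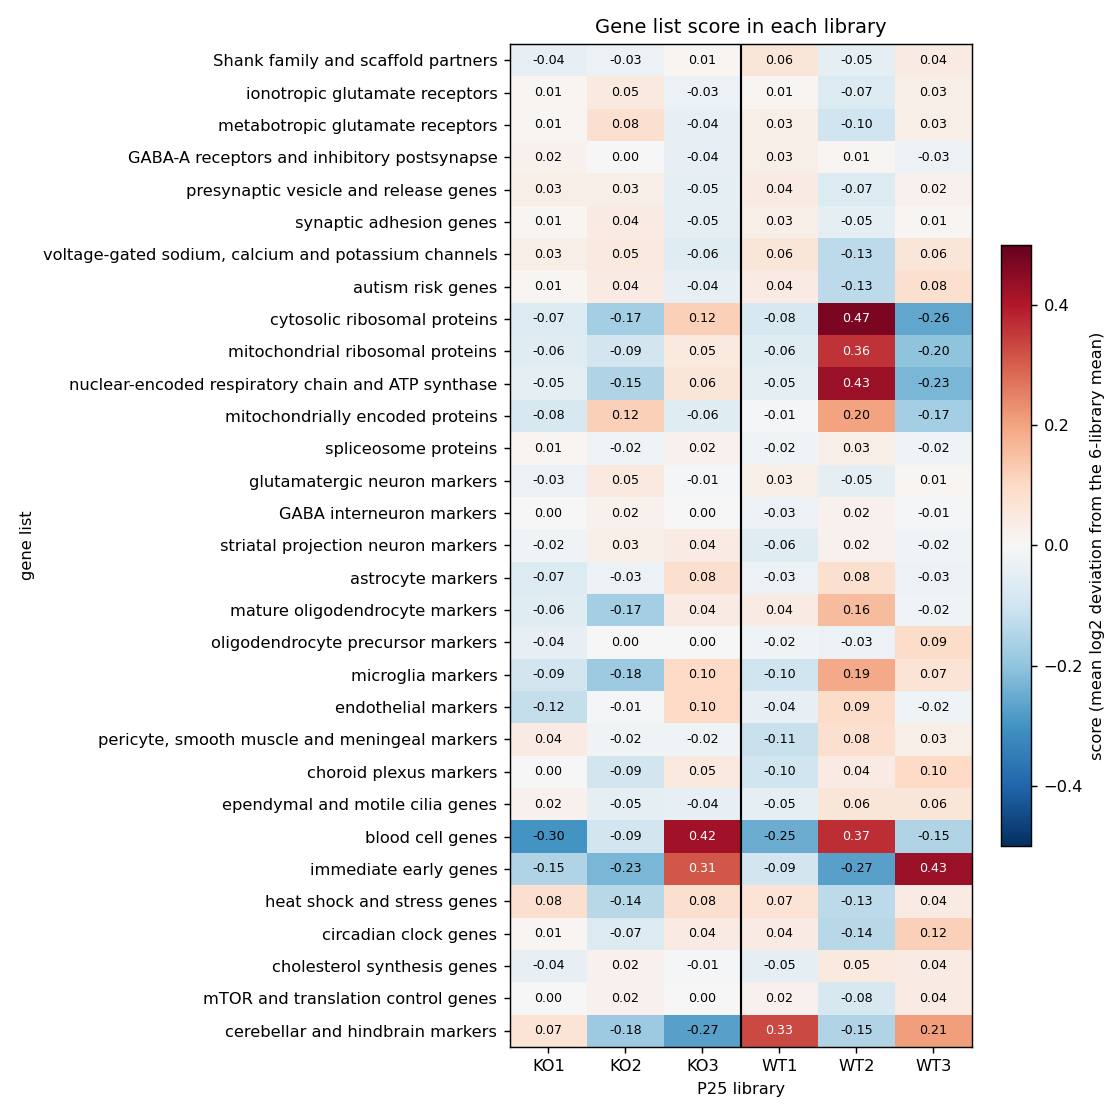
Each cell gives the score of a gene list (rows) in a P25 library (columns, KO1 to KO3 left of the black line and WT1 to WT3 right of it), as the mean log2 deviation of its members from the 6-library mean, red above and blue below 0. WT2 stands out in the ribosomal and respiratory chain lists, with scores from 0.36 to 0.47, while blood cell genes are high in KO3 and WT2 and immediate early genes in KO3 and WT3.

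The scaffold partners of SHANK3 did not follow it. The list held Shank1 to Shank3 with SAPAP, PSD-95, Homer, spectrin and CaMKII genes, 26 in all. Shank3 alone of them was called and lay below WT in every library. The median was -0.0032, or -0.01 without WT2, and 13 members were higher and 13 lower. Shank1 and Shank2, the paralogues of Shank3, were added for their kinship. Shank1 had 20036, 22973 and 24375 normalized counts in KO1 to KO3 and 24851, 23586 and 21838 in WT1 to WT3. Shank2 had 7335, 7360 and 7345 in KO and 8307, 6857 and 7418 in WT, and neither gene's groups were apart. Camk2a, the kinase that is the most abundant enzyme of the postsynaptic density, had 71680, 73331 and 77546 in KO and 76352, 74769 and 74850 in WT. Without WT2, 9 members were higher and 17 lower, and Homer1 and the densin gene Lrrc7 joined Shank3 at an unadjusted p under 0.05, which 4.14% of all genes reached in that fit. Both were singled out after their values were seen. The log2 fold changes with and without WT2 were -0.07 and -0.25 for Homer1 and -0.07 and -0.16 for Lrrc7. Homer1 had 5122, 3853 and 4747 in KO and 5522, 3750 and 5272 in WT, with both genotypes spread over nearly the same range.

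The receptors for glutamate showed small and mixed differences. Of 38 genes for AMPA, NMDA and kainate receptors and their auxiliary proteins, 24 were higher and 14 lower, none was called (0), and none had an unadjusted p under 0.05 (0, limma), against 1.36% of all genes. The range of log2 fold changes was -0.11 to 0.21, with a median of 0.01. Nptx2, a secreted pentraxin that clusters AMPA receptors, was at the upper end, with 1790, 1601 and 1743 in KO and 1667, 1394 and 1417 in WT. The AMPA receptor auxiliary gene Cacng8, the 1 member whose KO libraries all lay above WT, against 2.26% of all genes, had 1784, 1773 and 1680 in KO and 1658, 1455 and 1568 in WT, and was singled out after its values were seen. Without WT2, 15 members were higher and 23 lower, with a median of -0.01. The 7 metabotropic receptors had a median of 0.04, with Grm3 and Grm5 lower and the others higher, and -0.05 without WT2, with Grm2 and Grm8 higher and the others lower. Grm5, which links to SHANK3 through Homer, had 5475, 5917 and 5324 in KO and 5852, 5283 and 5743 in WT.

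Inhibitory synapse genes, presynaptic genes and adhesion genes also lay near the median of all genes. Of 21 genes for GABA-A receptors and their postsynapse, 9 were higher and 12 lower, with a median of -0.0066, and without WT2 10 were higher and 11 lower, with a median of -0.01. Gphn, the gephyrin scaffold of inhibitory synapses, lay below WT in every KO library, with 1998, 2163 and 1874 in KO and 2245, 2197 and 2185 in WT, a log2 fold change of -0.14 with and without WT2. Of 48 presynaptic genes 28 were higher and 20 lower, with a median of 0.0050 and no member apart in either direction (0). Without WT2 the balance turned, with 19 higher and 29 lower and a median of -0.01. In that fit 4 members had an unadjusted p under 0.05, 3 of them lower, 3 members lay above both remaining WT libraries in every KO library and 5 lay below them. Of all genes 4.14% had such a p in that fit, 9.28% lay above and 11.2% below. Syt2, the fast calcium sensor of release in parvalbumin neurons, was the lowest at -0.24, and -0.35 without WT2, with 3194, 2847 and 1996 in KO and 3376, 2655 and 3335 in WT. Of 44 adhesion genes 24 were higher and 20 lower, with a median of 0.0066, and without WT2 this too turned, to 18 higher and 26 lower with a median of -0.0099. The presynaptic neurexin gene Nrxn2 lay above WT in every KO library and Lrrtm2, a postsynaptic partner of neurexins, below, with log2 fold changes of 0.07 and -0.13, or 0.03 and -0.08 without WT2.

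The medians of ion channel and autism risk genes turned from above to below 0 when WT2 was left out. Of 53 genes for voltage-gated sodium, calcium and potassium channels, 32 were higher and 21 lower with all libraries, and 13 were higher and 40 lower without WT2. The medians were 0.0076 and -0.05, and 6 members, all lower, had an unadjusted p under 0.05 without WT2. WT2 had the lowest score, -0.13, and the other libraries had -0.06 to 0.06. Scn1a, the sodium channel of parvalbumin neurons mutated in Dravet syndrome, had 5275, 5210 and 4616 in KO and 5606, 4894 and 5657 in WT. The list of 116 autism risk genes leaves out Shank3, which is described above. Of these genes 114 were tested, 62 of them higher and 52 lower, with a median of 0.0043 and none with an unadjusted p under 0.05 (0, limma). Without WT2, 25 were higher and 89 lower, with a median of -0.07, and 11 had an unadjusted p under 0.05, all lower. In the same fit 4.14% of all genes tested had such a p. Of 17445 genes tested both with and without WT2, 719 had such a p without it, 430 of them lower in KO, and 49.5% were higher in KO. Tm9sf4 had 2746, 2860 and 2651 in KO and 3202, 2659 and 3165 in WT, so that WT2 lay among the KO libraries. Without KO2 the medians of both lists were -0.02, and without any of the other 4 libraries they were at most 0.05. Reln, the extracellular guidance protein reelin, had the smallest p-value among the risk genes higher in KO with all libraries, with 3514, 4281 and 3272 in KO and 3082, 2687 and 3729 in WT.

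Markers of neuron types differed little. Glutamatergic neuron markers, 25 genes, had a median of -0.0053 with 11 higher and 14 lower, and without WT2 -0.03 with 8 higher and 17 lower. GABA interneuron markers, 30 genes, had a median of 0.0022 with 15 on each side, and without WT2 0.01 with 16 higher and 14 lower. Dlx5, a transcription factor of interneurons, had an unadjusted p under 0.05, with 229, 225 and 255 in KO and 175, 161 and 226 in WT, and WT3 reached the KO values. Of 30 striatal projection neuron markers 21 were higher and 9 lower both with and without WT2, with medians of 0.03 each time, and of 0.02 to 0.05 when any other library was left out. The scores were -0.02, 0.03 and 0.04 in KO and -0.06, 0.02 and -0.02 in WT, and they overlapped. Penk, the enkephalin precursor of indirect pathway neurons, had 5759, 5787 and 6665 in KO and 5762, 6690 and 5301 in WT. Drd2, the dopamine receptor of the same neurons, was the 1 member with all KO libraries above WT, with 1059, 997 and 1026 in KO and 970.1, 969 and 994 in WT, and was singled out after its values were seen.

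The myelin genes of mature oligodendrocytes lay on the lower side in KO. All 36 markers had a log2 fold change below 0, from -0.28 to -0.0081, with a median of -0.12. None was called (0), and 1, Ermn, had an unadjusted p under 0.05, against 1.36% of all genes. Without WT2, 3 had such a p, all lower, against 4.14% of all genes. In that fit 34 of the 36 were still lower, with a median of -0.07, and the exceptions were Ppp1r14a and Dbndd2. The library scores were -0.06, -0.17 and 0.04 in KO1 to KO3 and 0.04, 0.16 and -0.02 in WT1 to WT3. KO2 was the lowest and WT2 the highest, and KO3 lay within the WT range. The median stayed between -0.17 and -0.07 whichever library was left out, and it was -0.10 with libraries scaled to the same total. In bulk tissue, fewer cells of a type and less RNA per cell cannot be told apart.

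Mbp, which encodes myelin basic protein, had 163188, 155751 and 195306 normalized counts in KO1 to KO3 and 189671, 214530 and 174755 in WT1 to WT3. Mobp, another basic protein of compact myelin, had 49675, 45722 and 56532 in KO and 53884, 59854 and 52874 in WT. For both genes KO1 and KO2 were lower than every WT library and KO3 was not. Ermn, a cytoskeletal protein of mature oligodendrocytes, had 2269, 1966 and 2248 in KO and 2458, 2628 and 2405 in WT, and the groups were apart. Its log2 fold change was -0.21 ± 0.08 (SE), or -0.17 without WT2. Aspa, the aspartoacylase of oligodendrocytes, was the only other member with all KO libraries below WT, against 2.5% of all genes, with 581, 541 and 614 in KO and 645, 833 and 637 in WT, and was singled out after its values were seen. Among 20 markers of precursors and differentiating cells, 7 were higher and 13 lower, with a median of -0.0070, and without WT2 6 were higher and 14 lower, with a median of -0.03. Enpp6, which marks newly formed oligodendrocytes, had 942, 881 and 915 in KO and 1084, 1121 and 991 in WT, with a log2 fold change of -0.22 ± 0.09 (SE), or -0.18 without WT2.

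Microglia markers were also mostly lower in KO, with more overlap. Of 28 genes 25 were lower, with a median of -0.11, and the exceptions were Tmem119, Ly86 and Fcer1g. Without WT2, 19 were lower and the median was -0.06. The scores were -0.09, -0.18 and 0.10 in KO and -0.10, 0.19 and 0.07 in WT. KO2 was again the lowest and WT2 the highest. Cx3cr1, the fractalkine receptor of microglia, had 929, 1004 and 1009 in KO and 981, 1206 and 1242 in WT. C1qb, a complement chain made by microglia, had 910, 827 and 1086 in KO and 984, 1294 and 988 in WT. Whichever library was left out, the median of this list stayed between -0.17 and -0.04. Blood cell genes, the other list with myeloid members, had scores of -0.30, -0.09 and 0.42 in KO and -0.25, 0.37 and -0.15 in WT, and their part in the microglia result was not tested.

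The medians of the astrocyte, vascular and choroid plexus lists changed sign when WT2 was left out. Astrocyte markers, 30 genes, had a median of -0.02 with 9 higher, and 0.04 with 19 higher without WT2. Apoe, the main brain apolipoprotein, had 39565, 43361 and 52060 in KO and 42492, 55823 and 40425 in WT. Endothelial markers, 28 genes, had medians of -0.02 and 0.05 with and without WT2. The 26 pericyte, smooth muscle and meningeal markers had medians of -0.04 and 0.02. The choroid plexus list, 22 genes, had medians of -0.04 and 0.0032, and its main product Ttr, the carrier of thyroid hormone, had 11437, 9617 and 13102 in KO and 10569, 13518 and 11283 in WT.

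Cilia genes as a list lay near the median of all genes, although Ccdc40, a member, and Cfap157, which is not in the list, had positive log2 fold changes of 0.88 and 1.45. Of 42 ependymal and motile cilia genes 39 were tested, 17 higher and 22 lower, with a median of -0.02, or -0.03 without WT2. Foxj1, the master regulator of motile cilia, had 323, 377 and 392 in KO and 369, 390 and 447 in WT. Lrrc23, a radial spoke protein, lay below WT in every KO library, with 35.0, 35.6 and 53.4 in KO and 55.5, 80.9 and 59.1 in WT.

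Blood cell genes varied most between libraries of 1 genotype. Of 20 genes 10 were in the table and 9 were tested. Hbb-bs, adult beta-globin, had 7465, 8872 and 16412 normalized counts in KO1 to KO3 and 7673, 15504 and 7894 in WT1 to WT3. KO3 and WT2 were thus high and the other libraries alike. The same libraries were high for Hba-a1, an alpha-globin gene with a near-identical copy, Hba-a2, with 5507, 6513 and 10591 in KO and 5152, 9332 and 5636 in WT. The median of the list was 0.07, and 0.34 without WT2, but -0.10 without KO3, -0.06 without WT1 and -0.09 without WT3. Its summed level was 29515 to 51814 in KO and 28319 to 48773 in WT.

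Immediate early genes, which neurons induce within minutes of activity, split the libraries in another way. The scores were -0.15, -0.23 and 0.31 in KO and -0.09, -0.27 and 0.43 in WT, so KO3 and WT3 were high. Arc, a regulator of AMPA receptor uptake, had 3107, 4029 and 9332 in KO and 3734, 4491 and 11583 in WT. Egr1, an activity-induced transcription factor, had 8294, 7102 and 10964 in KO and 9499, 5992 and 13663 in WT. Of 39 genes tested 15 were higher and 24 lower, with a median of -0.05. Without WT2, 8 were higher and 31 lower, with a median of -0.17. The median was above 0 without KO1 (0.01), KO2 (0.07) or WT3 (0.18). No member was apart in either direction with all libraries (0).

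Stress, clock, cholesterol and growth control genes had no member called (0), and WT2 bore on their balance as well. The medians with and without WT2 were 0.01 and -0.05 for 31 heat shock and stress genes, whose scores were lowest in KO2, at -0.14, and WT2, at -0.13, and 0.04 to 0.08 in the others. Of 21 clock genes 7 were higher and 14 lower with all libraries and 2 and 19 without WT2, with medians of -0.02 and -0.06. Without WT2 all KO libraries lay below both WT libraries for 6 clock genes, where this held for 11.2% of all genes. The medians were -0.04 and -0.00074 for 24 cholesterol synthesis genes, and 0.02 and -0.01 for 32 genes of mTOR signalling and translation control. Hmgcs1, an early enzyme of cholesterol synthesis, had 12316, 13546 and 12039 in KO and 12241, 12408 and 13005 in WT. Eef2, the ribosome translocation factor, was nearly level, with 38192 to 39304 in KO and 38020 to 38314 in WT. Spliceosome genes, 85 in all, had medians of 0.02 in both fits. Their snRNP member Snrpb2 lay below WT in every KO library, with 480.1, 452 and 477 in KO and 531, 591 and 575 in WT, and a log2 fold change of -0.27 ± 0.09 (SE), or -0.24 without WT2.

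The ribosomal and respiratory chain genes were the classes in which the direction turned on WT2 for nearly every member. Of 79 cytosolic ribosomal protein genes 9 were higher and 70 lower in KO with all libraries, with a median of -0.07. Without WT2, 78 were higher and 1, Rps27, was lower, with a median of 0.14. The scores were -0.07, -0.17 and 0.12 in KO1 to KO3 and -0.08, 0.47 and -0.26 in WT1 to WT3. The WT libraries thus held both the highest and the lowest score, and the KO libraries lay between them. Leaving out KO2 brought the median to -0.01, and weighting libraries by quality, which gave WT2 the lowest weight, brought it to 0.03.

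Rps2, a protein of the small ribosomal subunit, had 9781, 9834 and 11661 normalized counts in KO and 9719, 14672 and 8575 in WT. Rpl28, of the large subunit, had 2537, 2709 and 2933 in KO and 2471, 2918 and 2096 in WT, with log2 fold changes of 0.14 with and 0.26 without WT2. Rps27 differed from the rest of the list, with 46.7, 124 and 49.5 in KO and 110, 138 and 111 in WT, so that KO2 lay within the WT values. Many ribosomal protein genes have processed pseudogenes, so the division of their reads is uncertain.

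Mitochondrial genes of the nuclear genome followed the same order of libraries. The 78 nuclear-encoded respiratory chain and ATP synthase genes had 5 higher and 73 lower with all libraries, and 73 higher and 5 lower without WT2, with medians of -0.09 and 0.09. Their scores were -0.05, -0.15 and 0.06 in KO and -0.05, 0.43 and -0.23 in WT. Cox4i1, a subunit of cytochrome oxidase, had 13506, 11299 and 14972 in KO and 12783, 20824 and 10662 in WT. Sdha, the large subunit of succinate dehydrogenase, was among the 5 on the higher side and differed by 0.04 with WT2 and by -0.01 without it. The 78 mitochondrial ribosomal proteins had medians of -0.08 and 0.08, and the 13 proteins encoded by the mitochondrial genome -0.08 and 0.02. In the latter list mt-Nd4l and mt-Co2 were the 2 on the higher side. mt-Co1, the catalytic subunit of cytochrome oxidase, had 444238, 459882 and 474783 in KO and 477540, 535112 and 462481 in WT.

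**Figure D4:**
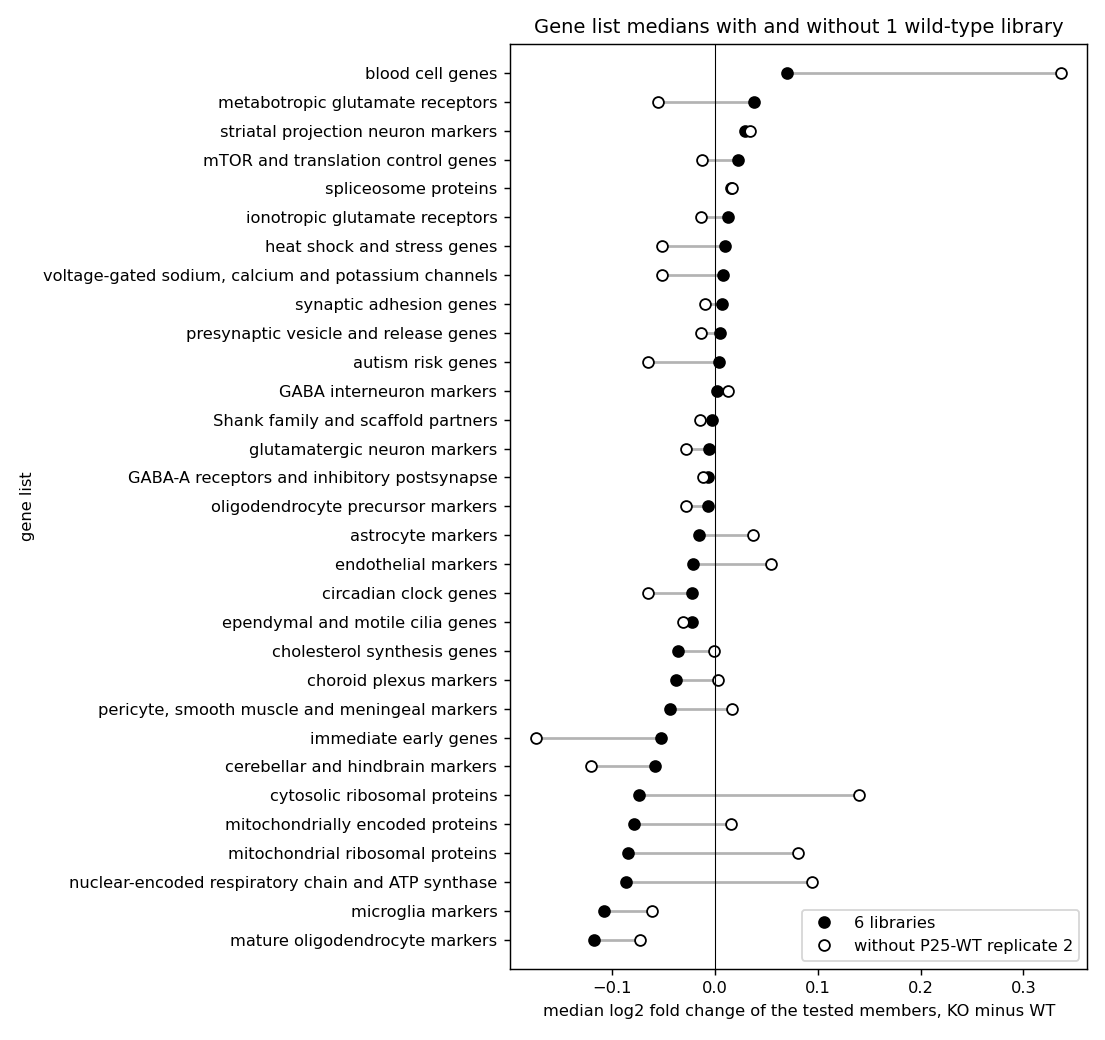
For each of 31 gene lists (rows), the median log2 fold change of its tested members (KO minus WT, horizontal axis) is shown with all 6 libraries (filled) and without WT2 (open), and a grey line joins them. The ribosomal and respiratory chain lists cross 0, from -0.07 to 0.14 and from -0.09 to 0.09, while mature oligodendrocyte and microglia markers stay below it.

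The deviation of WT2 went with transcript length. Genes were put into classes of about equal number by the length of their longest annotated transcript. In the class of shortest transcripts, 4378 genes of up to 2063 bases, the median log2 deviation of WT2 from the mean of the other 5 libraries was 0.23. In the class of longest transcripts, 4375 genes of at least 4646 bases, it was -0.15. WT3 deviated in the opposite sense, with -0.12 and 0.09, and KO3 in the same sense as WT2 but less, with 0.05 and -0.04. Spearman correlations across genes between deviation and length were -0.396 for WT2, 0.322 for WT3, 0.199 for WT1, 0.119 for KO1, 0.162 for KO2 and -0.191 for KO3. They are descriptions, since genes of 1 library are not independent.

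The log2 fold change between genotypes also ran with length, in a direction that depended on WT2. With all libraries its median went from -0.04 in the shortest class to 0.0060 in the longest, and without WT2 it ran the other way and over a wider span, from 0.06 to -0.05. Of the cytosolic ribosomal genes 68 of 79 were in the shortest class, with a median length of 1059 bases, as were 62 of 78 respiratory chain genes. Of the autism risk genes 89 of 114 were in the longest class, with a median length of 7286 bases, as were 38 of 53 channel genes. The part of length in the differences of these lists was not tested by itself. With the dependence on length and GC content removed by splines, the list medians with all libraries were -0.07 for cytosolic ribosomal and -0.07 for respiratory chain genes, 0.01 for channel genes, 0.0 for autism risk genes, -0.10 for mature oligodendrocyte markers and -0.09 for microglia markers.

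**Figure D5:**
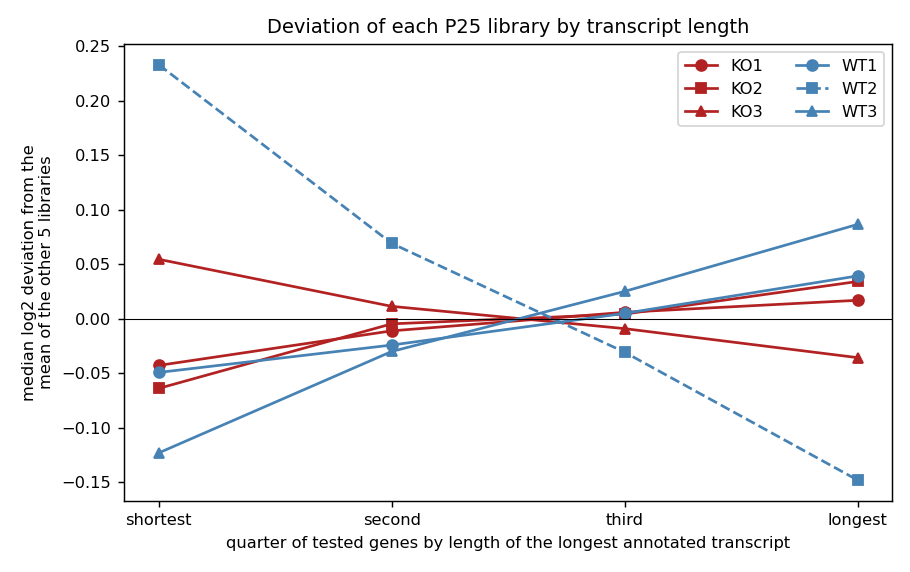
The median log2 deviation of each P25 library from the mean of the other 5 libraries (vertical axis) is plotted for classes of tested genes from the shortest to the longest annotated transcript (horizontal axis), KO in red and WT in blue, with WT2 dashed. WT2 runs from 0.23 down to -0.15 and WT3 from -0.12 up to 0.09, and the KO libraries lie between them.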

How the data were processed

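Transcripts were quantified by the authors with Salmon 1.1.0 with correction for GC bias, imported to R with tximport and normalized with DESeq2 (R 3.6.2 and DESeq2 1.26.0 per the labels, with other versions in the methods), on build GRCm38. The reference transcriptome and the use of strand are not given in the sources used here. The deposited signal values are normalized estimated counts per gene and library. They are not whole, no reads could be recovered from them, and the depth of each library is unknown, so no counting interval is given. RNA libraries were made with a TruSeq RNA kit, for which no unique molecular identifiers are mentioned.

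The 6 P25 columns of 12 were used, grouped by title. The genotypes were compared by limma 3.58.1 under R 4.3.3 (linear fits with genotype only, moderated with an intensity trend) on log2(value + 1), for genes with a mean of at least 10. DEGs were called at a Benjamini-Hochberg adjusted p under 0.05, two-sided. On this scale the change of low genes is understated. The study's count test could not be applied to normalized values. The fit was tested on simulated data, with changes placed in genes with a mean of at least 100. Of genes changed by 0.58 on the log2 scale 70% were called, and of those changed by 1, -1 or 2 100%. Another 10 genes were called falsely. The simulated libraries had the same variance for all genes and none deviated like WT2, so the outcome may not hold for the real libraries. Symbols, coordinates and transcript lengths came from GENCODE M21 (19252 of 19268 identifiers matched). Shared sequence was measured as 31-base words found in transcripts of other genes.

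Named genes were Shank3, the 3 others that the study names, the 8 genes of smallest p in each direction and the 5 such genes without WT2 (passing over pseudogenes and clone-like names), and in each list the 3 genes of highest level per length and the smallest p in each direction, of which a selection is printed and a few are not reported here. Genes outside this rule that are given values are marked as added or singled out, and exceptions to a count are named as such. The members, the 31 lists and the tests were chosen with earlier results of these data known. Alternatives changed the pseudocount, minimum mean, scaling, variance model and library weights, added a replicate block, or left out 1 library. Removing length and GC trends (splines with 5 degrees of freedom), rescaling without WT2 and the gene-by-gene method for library weights were chosen after seeing the data.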

Additional observations from a re-analysis of the deposited data

How the results depend on the processing

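The count of called genes was 0 without an intensity trend, with the replicate block and after removal of the trends on length and GC content, 2 (Shank3 and Yy2) with library quality weights, and 0 to 8 with 1 library left out (0 without KO1 or KO2, 2 without KO3, 8 without WT1). Under the other alternatives it was 1, Shank3. Genes with an unadjusted p under 0.05 numbered 419 without a trend, 213 with the block, 317 after trend removal, 217 without KO1 and 196 without KO2 (limma). The Shank3 log2 fold change was -1.06 without a trend (adjusted p = 0.412), -1.06 with the replicate block (adjusted p = 0.261) and -1.09 after trend removal (adjusted p = 0.178, limma), and -1.14 to -1.0 with 1 library left out. The replicate numbers share no origin in the labels, and deviations of same-numbered libraries had correlations of 0.016, -0.030 and -0.106, so the block shows only what the number alone does. Yy2, listed at 0 in WT, was called with quality weights (adjusted p = 0.0304, limma). These weights were 0.217 for WT2 and 0.804 to 3.71 for the others.

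With 1 library left out, the log2 fold change of Sst ranged from -0.12 to 0.26, of Snhg14 from -0.37 to 0.06 and of Tnrc6b from -0.35 to 0.05. The values opposite in sign to those with all libraries were -0.01, -0.07 and -0.12 for Sst without KO3, WT1 or WT3, 0.04 and 0.06 for Snhg14 without WT1 or WT3, and 0.05 for Tnrc6b without WT3. The median of metabotropic receptors was -0.05 with quality weights and with WT2 left out and totals equalized, and -0.05 to 0.08 with 1 library left out. That of GABA interneuron markers was 0.03 with quality weights and up to 0.04 with 1 library left out. Cilia genes had -0.08 at a minimum mean of 100, and cholesterol genes 0.02 with quality weights. The causes were not tested. Limits: 3 libraries a group, unknown depth, and an annotation that may differ from the authors' reference.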

Other observations

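The neighbours of Shank3 on chromosome 15 were examined as the genes closest to the deletion. Within 1 Mb of the gene 39 other genes were tested, and none was called (0), nor did any have an unadjusted p under 0.05 (0, limma), against 1.36% of all genes. Of these 15 were higher and 24 lower in KO, with a median log2 fold change of -0.0098. Without WT2 none was called (0), 14 were higher and 25 lower, with a median of -0.04, and 2 had an unadjusted p under 0.05 (limma), which 4.14% of all genes reached in that fit. These were Klhdc7b, at -1.0, or -0.65 with all libraries (17.7, 22.2 and 22.5 normalized counts in KO1 to KO3, 33.1, 19.8 and 54.2 in WT1 to WT3), and Cpne8, at 0.21, or 0.14 with all libraries. The neighbours named here were singled out after their values were seen. The extremes with all libraries were Gm44502, at -1.27 (-1.63 without WT2) and a low level (0, 12.0 and 31.6 normalized counts in KO1 to KO3, 26.5, 9.89 and 18.8 in WT1 to WT3), and Gm15609, at 0.24, which turned to -0.10 without WT2. Gm15609, a lincRNA that lies within Shank3 and shares sequence with it, had 39.1, 41.0 and 27.4 normalized counts in KO1 to KO3 and 46.9, 18.2 and 30.4 in WT1 to WT3.

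The genes with a mean of at least 100 in which WT2 lay farthest from the mean of the other libraries were not of 1 kind. WT2 was low for Xlr3b, a lymphoid gene family member on the X chromosome, with 12.96 normalized counts against 41.6 to 625 in the others, of which WT3 was the highest. Xlr3b shares 69% of its words with other genes, 58.5% with Xlr3a, so its values are uncertain. WT2 was low for the activity-induced genes Fosb, with 124 against 181 to 833, and Egr2, with 104, where KO2 was lower still at 95.9. It was low for Tep1, a telomerase-associated protein, with 94.3 against 182 to 306. WT2 was high for Pycard, an inflammasome adaptor, with 180 against 69.0 to 131, and for Lsp1, an actin-binding protein of leukocytes, with 166 against 69.2 to 135. It was also high for Anpep, an aminopeptidase of pericytes, with 286 against 119 to 199. The ribosomal protein gene Rps14 was among these genes too, with 9947 in WT2 against 4161 to 6239. Fam205a2 and Fam205a3 share 100% of their words, and Fam205a2 was listed at 0 in KO2, KO3 and WT3, so their values cannot be read gene by gene. Their sum was 532, 622 and 550.5 in KO1 to KO3 and 598, 295 and 366 in WT1 to WT3.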
